A study of Mus musculus with 6 samples.

Results

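The genes examined here encode the pre-B cell receptor and the machinery that builds antigen receptor genes. They are Vpreb1, Vpreb3, Igll1, Rag1, Rag2, Dntt, Pax5, Cd79a, Cd79b and Ighm, 10 in all. A probe set, a group of short probes read out as 1 value, was counted as a member when the platform annotation gave it exactly 1 gene symbol and that symbol was one of these. The rule found 24 probe sets among the 34945 probe sets with 1 symbol, and each of the 10 genes had at least 1. The annotation gave 11 of them to Ighm, 3 to Dntt, 2 each to Igll1 and Pax5, and 1 to each other gene.

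RNA came from bone marrow of 3 mice, labelled with the genotype Grem1;TdTomato on C57BL/6J, aged 6 to 8 weeks and given tamoxifen orally. From each mouse a Grem1+ fraction and a Grem1- fraction were sorted after digestion of the marrow, and each was hybridised to an array, so both groups hold 3 arrays that are matched by mouse. The Grem1- fraction was gated as non-recombined and triple negative for CD45, CD31 and Ter-119, which mark blood, endothelial and erythroid cells, and for the Grem1+ fraction the labels state a sort for Grem1 only. All animals of both groups carry the reporter and received tamoxifen, and neither the driver of recombination nor any pooling is described in the labels. Gene activity is given as log2 values, so a difference of 1 is a doubling or halving. A value at or below log2 4 is called dim here, a chosen limit, since no detection limit was measured.

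During development in the marrow, B cell precursors join gene segments of the immunoglobulin heavy chain locus with the RAG1 and RAG2 recombinase, while terminal transferase, the product of Dntt, adds bases at the joints. The finished mu heavy chain, encoded by Ighm, is tested at the cell surface together with a surrogate light chain made of VpreB and lambda5, the products of Vpreb1 and Igll1. The heterodimer of CD79A and CD79B passes the signal on, and PAX5 holds the cells to the B lineage. As B cells are blood cells, the gate of the Grem1- fraction is aimed at removing cells that carry CD45.

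Promoters of 8 of the 10 genes were found in a RefSeq table of build GRCm38.p6, which covers 250 bases before and 50 bases after each start. They were searched on both strands for CAGGTG, an E-box that E2A proteins bind, for the octamer ATGCAAAT of immunoglobulin promoters, and for CCCNNGGG, the core of the palindrome that EBF proteins bind. The whole palindrome, this core with a T before it and an A after it, was searched as well. Apart from that nesting, the letters of these motifs do not let their matches overlap. These motifs were chosen with the sequences in view. The E-box was in 4 of the 8 promoters (Cd79a, Igll1, Rag1 and Vpreb1), against 20.2% of 32851 promoters in the table. It began 88 bases before the start in Vpreb1, 8 in Igll1, 135 in Rag1 and 154 in Cd79a. The octamer was in that of Vpreb3, 45 bases before the start, and in 1.74% of all promoters. The EBF core was in that of Igll1 and in 13.7% of all, and the whole palindrome in 0 of the 8 and in 0.904% of all. Shown in the transcribed direction are the 4 with the E-box, in capitals, and that of Dntt, a gene with 3 called probe sets, which held no match.
Vpreb1 promoter, chr16:16869206-16869505, minus strand: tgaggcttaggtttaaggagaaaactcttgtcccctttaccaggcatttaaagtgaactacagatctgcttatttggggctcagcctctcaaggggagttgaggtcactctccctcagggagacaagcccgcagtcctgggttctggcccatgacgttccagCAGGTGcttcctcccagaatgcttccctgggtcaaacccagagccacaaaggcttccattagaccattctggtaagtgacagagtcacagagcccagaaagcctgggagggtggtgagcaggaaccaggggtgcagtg
Igll1 promoter, chr16:16863936-16864235, minus strand: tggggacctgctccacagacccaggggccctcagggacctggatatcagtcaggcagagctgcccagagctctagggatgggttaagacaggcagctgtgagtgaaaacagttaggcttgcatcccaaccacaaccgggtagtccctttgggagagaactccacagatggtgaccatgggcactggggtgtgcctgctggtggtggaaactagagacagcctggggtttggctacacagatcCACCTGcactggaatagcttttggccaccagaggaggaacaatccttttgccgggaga
Rag1 promoter, chr2:101649483-101649782, minus strand: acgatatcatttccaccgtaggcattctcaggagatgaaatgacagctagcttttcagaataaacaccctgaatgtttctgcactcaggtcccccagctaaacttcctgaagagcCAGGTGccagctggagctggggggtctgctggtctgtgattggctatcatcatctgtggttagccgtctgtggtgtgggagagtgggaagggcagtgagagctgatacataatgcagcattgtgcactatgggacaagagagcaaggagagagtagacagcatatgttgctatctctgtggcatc
Cd79a promoter, chr7:24897247-24897546, plus strand: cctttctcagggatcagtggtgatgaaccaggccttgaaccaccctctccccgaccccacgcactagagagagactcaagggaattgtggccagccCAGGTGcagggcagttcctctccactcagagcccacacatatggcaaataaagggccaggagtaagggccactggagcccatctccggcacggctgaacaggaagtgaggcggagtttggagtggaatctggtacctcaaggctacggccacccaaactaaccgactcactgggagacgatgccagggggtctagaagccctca
Dntt promoter, chr19:41029025-41029324, plus strand: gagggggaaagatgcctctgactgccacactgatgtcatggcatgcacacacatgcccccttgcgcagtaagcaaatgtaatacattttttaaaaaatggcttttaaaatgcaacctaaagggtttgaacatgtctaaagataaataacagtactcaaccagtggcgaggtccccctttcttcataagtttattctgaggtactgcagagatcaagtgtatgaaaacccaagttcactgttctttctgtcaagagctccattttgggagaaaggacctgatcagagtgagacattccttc
Vpreb1 and Igll1 lie on the same strand with their starts 5270 bases apart. Rag1 and Rag2 start 24820 bases apart on opposite strands.

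The arrays also differed in other measures. Ptprc, the gene of CD45, averaged 12.09 ± 0.30 in Grem1- despite the gate and 9.15 ± 1.68 in Grem1+ on its brighter probe set, and 8.85 ± 0.50 and 3.18 ± 0.60 on the other (SD, n = 3). Xist, a transcript of the inactive X chromosome, was high on both arrays of mouse 3 (11.04 and 10.60 on its brightest probe set) and at or below 2.99 on the other 4, although the labels give all animals as male, so the tested members are also given without mouse 3 after the gene lists. Gapdh control probes at the 3' end exceeded those at the 5' end, a gap that widens as RNA shortens, by 2.66 ± 0.34 in Grem1- and 3.58 ± 0.51 in Grem1+. The same gap of the actin control probes was 0.164 ± 0.015 in Grem1- and 0.091 ± 0.11 in Grem1+, so the controls did not differ in the same direction. The part of these differences in the results was not tested. In sorted bulk samples, fewer cells of a type and less RNA per cell cannot be told apart.

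Transcripts of the pre-B cell receptor and recombination machinery were lower in Grem1+ than in Grem1- for 4 of the 10 genes, and higher for 0. These were Vpreb1, Dntt, Cd79b and Ighm, each counted when at least 1 probe set passed. Only 7 of the 10 genes had a tested probe set. By the tested probe set with the highest mean, the same 4 were lower, against 7.81% of 10151 genes, while 11.1% were higher. Of the 24 probe sets, 17 were above log2 4 on at least 3 of the 6 arrays and were tested with limma. Of these, 10 were lower at an adjusted p under 0.05, against 7.76% of the 18157 probe sets tested, and 0 were higher, against 10.1%. Among the 17, 12 were dim on every Grem1+ array and so entered the test through Grem1- alone. Such probe sets could hardly do other than differ, and 8 of the 12 were called, against 56.6% of the 542 tested probe sets of that kind. All 3 Grem1- arrays stood above all 3 Grem1+ arrays for 18 of the 24 members, against 13.9% of all probe sets with 1 symbol. It also held for all 17 tested members and for 20.4% of all tested probe sets, but for the 12 that were dim in Grem1+ the filter fixed it, so nothing is read from that count. The remaining 7 members were too dim to test: both probe sets of Pax5, those of Vpreb3 and Rag2, and 3 of Ighm.

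**Figure D1:**
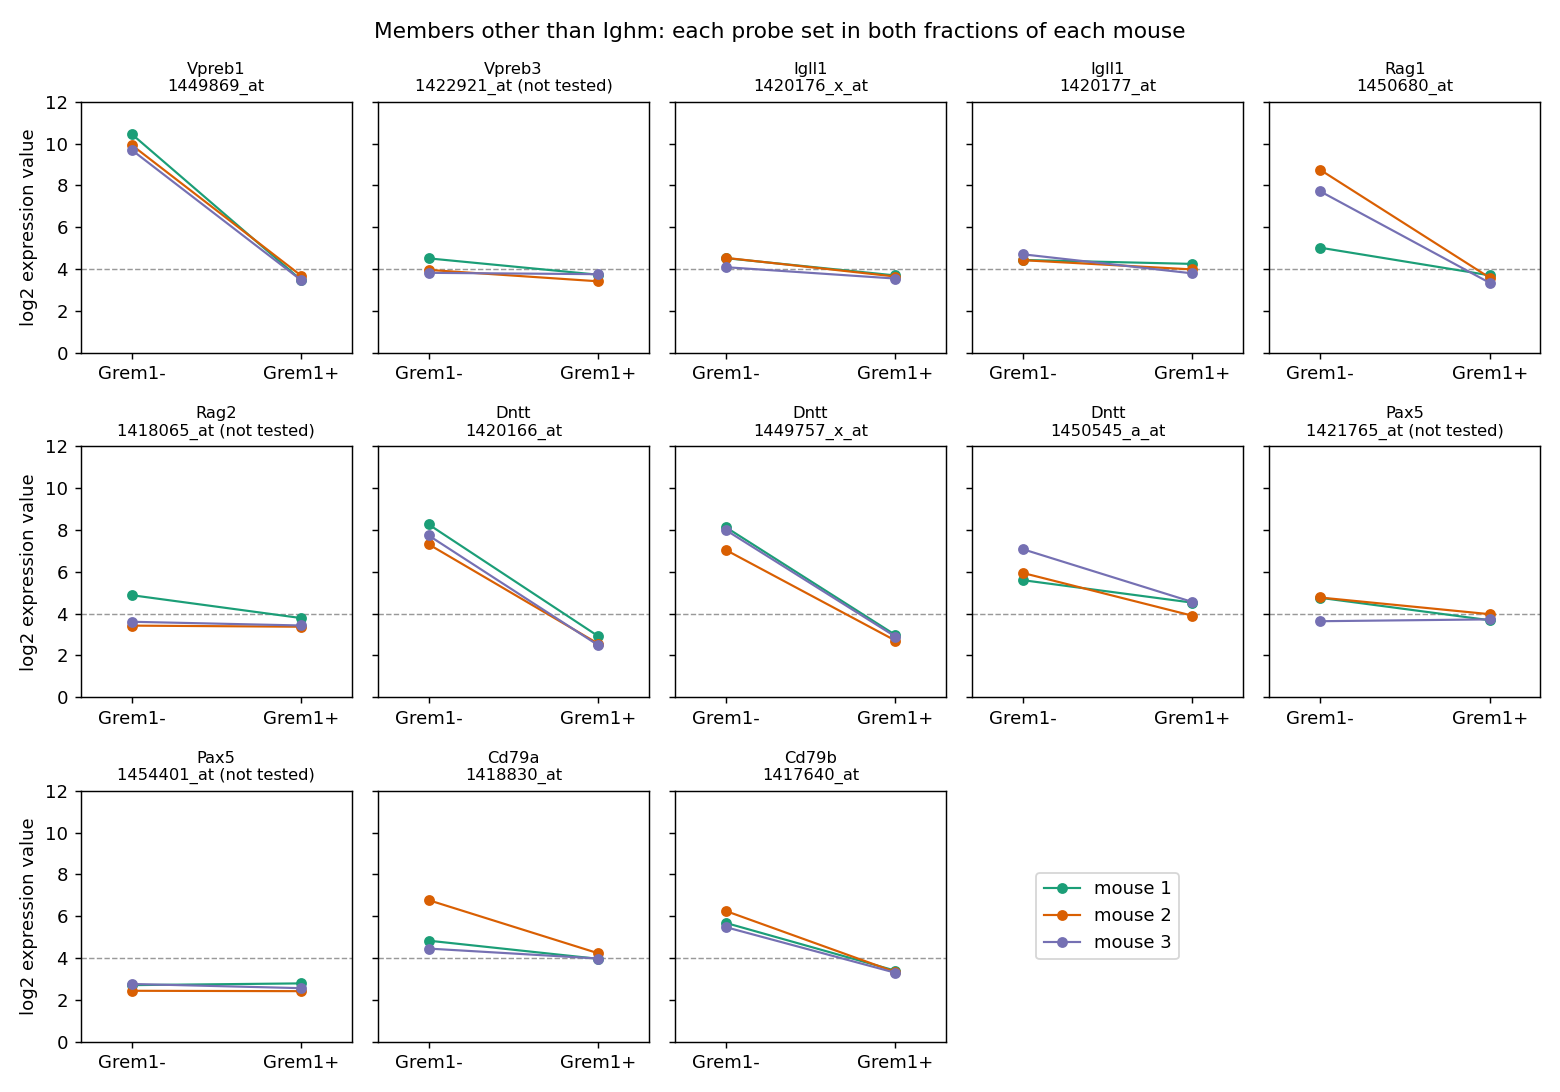
Log2 expression values (vertical axis) of the 13 member probe sets other than those of Ighm, in the Grem1- and Grem1+ fraction of each mouse; lines join the fractions of 1 mouse and the dashed line marks log2 4. Vpreb1 and the first pair of Dntt probe sets fall steeply in all 3 mice, whereas Rag1 starts low in mouse 1, Igll1, Vpreb3 and 1421765_at of Pax5 stay near the dashed line and 1454401_at of Pax5 lies below it.

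Of the surrogate light chain genes, Vpreb1 showed the largest difference. Vpreb1 stood at 10.47, 9.94 and 9.71 in the Grem1- fractions of mice 1, 2 and 3 and at 3.48, 3.69 and 3.47 in their Grem1+ fractions. The groups were far apart, and every Grem1+ array was dim. The difference was -6.49 (SE 0.32, adjusted p = 0.00989 in limma), or at least 65.7-fold lower in Grem1+ with dim values set to log2 4. Vpreb1 has a close copy, Vpreb2, and another probe set annotated to both was no member. That shared probe set was at 5.0, 4.88 and 4.38 in Grem1- and at 3.95, 3.74 and 3.82 in Grem1+, so the direction was shared and the size was not.

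Igll1, which encodes lambda5, the partner of VpreB, was near the dim limit on both of its probe sets. The probe set 1420177_at stood at 4.43, 4.42 and 4.71 in Grem1- and at 4.25, 3.98 and 3.79 in Grem1+. The other, 1420176_x_at, stood at 4.52, 4.54 and 4.09 in Grem1- and at 3.69, 3.64 and 3.55 in Grem1+. The groups did not overlap on either probe set, but the gaps were small. The differences of -0.51 (95% interval -1.35 to 0.32) and -0.76 (-1.52 to 0.013) did not pass (limma adjusted p = 0.320 and 0.148). Vpreb3, a VpreB-like protein of B cell precursors, stood at 4.51, 3.96 and 3.82 in Grem1- and at 3.73, 3.41 and 3.75 in Grem1+. The lowest Grem1- array of Vpreb3 exceeded the highest Grem1+ array by less than the spread within either group, and the probe set was not tested. The large value of Vpreb1 was thus not shared by the probe sets of its partner, Igll1.

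Among the recombination genes, Dntt was lower in Grem1+ on all 3 of its probe sets. On 1420166_at the Grem1- fractions of mice 1, 2 and 3 stood at 8.26, 7.31 and 7.73 and the Grem1+ fractions at 2.92, 2.56 and 2.48. On 1449757_x_at they stood at 8.13, 7.04 and 7.99 and at 2.98, 2.71 and 2.90. On both, no Grem1+ array rose above the dim limit. Their differences were -5.12 (SE 0.30, limma adjusted p = 0.00989) and -4.86 (SE 0.33, limma adjusted p = 0.00992), which with dim values at log2 4 is at least 13.6-fold and at least 13.2-fold lower. The probe set 1450545_a_at differed less, from 5.60, 5.94 and 7.08 in Grem1- to 4.52, 3.89 and 4.55 in Grem1+. Its difference of -1.88 (SE 0.40) passed narrowly (limma adjusted p = 0.0465) and lost its call without the filter on dim probe sets (adjusted p = 0.0871).

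Rag1, a subunit of the recombinase, varied widely among the Grem1- fractions. Rag1 stood at 5.02, 8.75 and 7.72 in the Grem1- fractions and at 3.70, 3.59 and 3.34 in the Grem1+ fractions of mice 1, 2 and 3. All Grem1- arrays were above all Grem1+ arrays, which were dim, and mouse 1 was lower than the other two in Grem1-. The difference of -3.62 (SE 0.85, 95% interval -5.91 to -1.33) missed the threshold in limma (adjusted p = 0.0563). Its adjusted p was 0.0332 without the replicate block, and it also passed with an intensity trend (adjusted p = 0.0401) and with the filter at log2 5 (adjusted p = 0.0388). Over 16 alternatives the adjusted p ran from 0.0185 to 0.194. Apart from these, Rag1 passed where the probe sets of each gene were averaged (limma adjusted p = 0.0360), although it has a single probe set. Rag2, the other subunit, stood at 4.88, 3.42 and 3.61 in Grem1- and at 3.78, 3.37 and 3.43 in Grem1+. The groups of Rag2 overlapped, and only mouse 1 in Grem1- was above the dim limit. Mouse 1 was thus the lowest Grem1- array for Rag1 and the highest for Rag2.

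Pax5, the transcription factor that commits precursors to the B lineage, was not tested. Its probe set 1421765_at stood at 4.75, 4.77 and 3.63 in Grem1- and at 3.68, 3.97 and 3.72 in Grem1+. The groups overlapped, since the Grem1- fraction of mouse 3 lay below all Grem1+ fractions. The second, 1454401_at, ranged from 2.43 to 2.76 in Grem1- and from 2.42 to 2.79 in Grem1+, dim throughout.

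The signalling subunits differed from each other in outcome. Cd79b, which encodes Ig-beta, stood at 5.68, 6.25 and 5.48 in Grem1- and at 3.40, 3.33 and 3.30 in Grem1+. Arrays of both groups were tightly spaced, and the difference of -2.46 (SE 0.32) passed (limma adjusted p = 0.0181), at least 3.49-fold lower with dim values at log2 4. Cd79a, which encodes Ig-alpha, stood at 4.83, 6.77 and 4.45 in Grem1- and at 3.96, 4.23 and 3.98 in Grem1+. The groups of Cd79a did not overlap, with mouse 2 apart from the rest in Grem1-. The difference of -1.30 (95% interval -2.68 to 0.091) did not pass (limma adjusted p = 0.162) and was -0.67 without mouse 2. Whether Cd79a and Cd79b differ in their change was not tested.

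**Figure D2:**
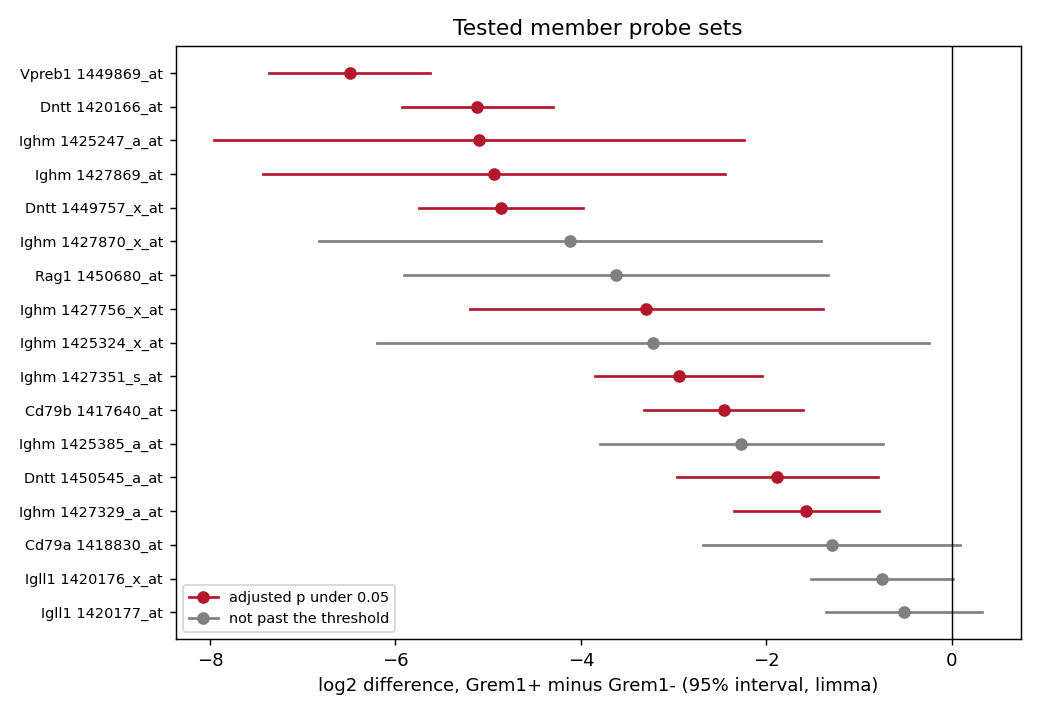
Log2 difference, Grem1+ minus Grem1-, of the 17 tested member probe sets (points) with 95% intervals from limma (lines); red marks an adjusted p under 0.05. All 17 points lie below 0, from -6.49 for Vpreb1 to -0.51 for Igll1, and 10 are red.

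Ighm, the gene of the mu heavy chain, gave probe sets of 3 kinds. On 6 of the 11 the Grem1- fraction of mouse 3 was the highest of all arrays. The probe set 1427869_at stood at 7.83, 7.65 and 11.38 in the Grem1- fractions of mice 1, 2 and 3 and at 4.14, 4.04 and 3.88 in Grem1+. On 1425247_a_at they stood at 6.39, 8.15 and 10.96 and at 3.79, 3.21 and 3.20. On 1425324_x_at they stood at 5.82, 5.01 and 10.22 and at 4.04, 3.46 and 3.88. Mouse 3 was thus set apart in Grem1- and not in Grem1+, where it was the lowest or the middle array among values near or below the dim limit.

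The difference was -4.94 (SE 0.92, limma adjusted p = 0.0353) for 1427869_at and -5.10 (SE 1.06, limma adjusted p = 0.0439) for 1425247_a_at, and it shrank to -3.65 and -3.77 without mouse 3. For 1425247_a_at, dim on every Grem1+ array, the bound is at least 22.6-fold lower with all mice, at least 9.63-fold without mouse 3 and at least 47.0-fold without mouse 1. Both lost their call without the filter on dim probe sets (adjusted p = 0.0979 and 0.118). The probe set 1425324_x_at, with -3.22 (SE 1.10), did not pass (limma adjusted p = 0.122) and stood at -1.66 without mouse 3. Of the other 3 of this kind, 1427756_x_at stood at 5.96, 5.65 and 8.58 in Grem1- and passed (-3.30, SE 0.70, limma adjusted p = 0.0470), but not without the filter (adjusted p = 0.116) or with dim values set to log2 4 (adjusted p = 0.0703). The remaining pair, 1427870_x_at with -4.12 and 1425385_a_at with -2.27, missed the threshold (limma adjusted p = 0.0612 and 0.0640). In a fit that ignored the replicate block, both passed (adjusted p = 0.0386 and 0.0400), as they did with an intensity trend (adjusted p = 0.0387 and 0.0354). Both were dim on every Grem1+ array, and with values below log2 4 set to 4 their differences were -2.53 and -0.91 (adjusted p = 0.158 and 0.322). As bounds, this is at least 5.76-fold and at least 1.88-fold lower, or 2.30-fold and 1.16-fold without mouse 3.

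A second kind of Ighm probe set did not set mouse 3 apart upward. The probe set 1427351_s_at stood at 6.68, 7.14 and 5.93 in Grem1- and at 3.91, 3.65 and 3.35 in Grem1+, and 1427329_a_at at 4.95, 4.87 and 4.81 and at 3.65, 3.18 and 3.08. On both, mouse 3 was the lowest of the Grem1- arrays, and all Grem1+ arrays were dim. Their differences were -2.95 (SE 0.33, limma adjusted p = 0.0153) and -1.57 (SE 0.29, limma adjusted p = 0.0348), at least 5.99-fold and at least 1.84-fold lower, though the latter lost its call with dim values set to log2 4 (adjusted p = 0.0936). The third kind, 1426196_at, 1451949_at and 1452535_at, was dim on all 6 arrays, with differences from -0.18 to -0.015. The files do not state which part of the Ighm transcripts each probe set covers, and suffixes with x or s mark probes that other transcripts may share. Another 4 probe sets annotated to Ighm together with other immunoglobulin genes were no members and stayed below log2 4 on all arrays.

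**Figure D3:**
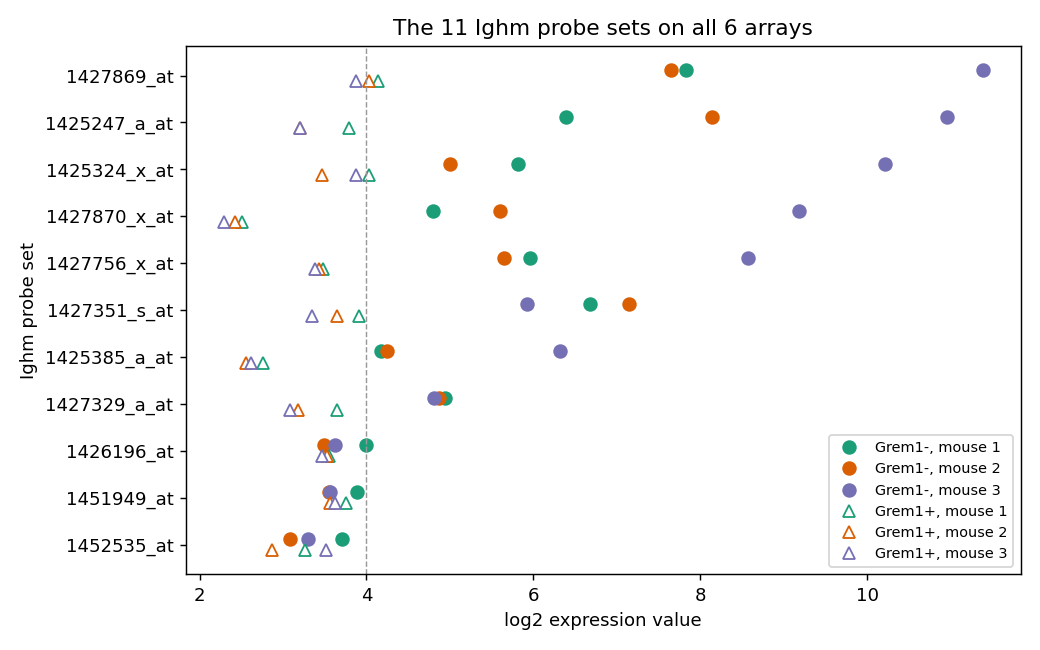
Log2 expression values (horizontal axis) of the 11 Ighm probe sets, ordered by their highest Grem1- array; filled circles are Grem1- and open triangles Grem1+ arrays, coloured by mouse, and the dashed line marks log2 4. Mouse 3 is far to the right in Grem1- on 6 probe sets, up to 11.38, and lies leftmost of the Grem1- arrays on 1427351_s_at and 1427329_a_at.

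The Grem1- fractions were thus not ordered alike by the members. Mouse 1 was highest for Vpreb1, the first pair of Dntt probe sets and Rag2, mouse 2 for Rag1, Cd79a and Cd79b, and mouse 3 for 6 Ighm probe sets and 1450545_a_at of Dntt. In Grem1+, 12 of the 17 tested probe sets were dim on all 3 arrays. No member exceeded 4.55 in that fraction, a value reached on 1450545_a_at of Dntt in mouse 3.

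Genes that act with the members moved in part. Each gene of the following lists stands by its tested probe set with the highest mean, and over all 10151 genes 7.81% were lower and 11.1% higher, with a median difference of 0.043. Differences given for genes that were dim on part of the arrays rest partly on dim values. With dim values set to log2 4, Ikzf1 stood at -4.57, Cd93 at -5.27, Bst1 at -3.86 and Mmp8 at -4.90. Ctsg then stood at -4.80, Car2 at -6.35 and Cytl1 at 6.42. Of 16 tested transcription factors of the B lineage and its precursors, 6 fell and 1 rose, with a median difference of -0.996. Ikzf1, which encodes Ikaros, fell by 5.33 on the log2 scale (SE 0.51, limma adjusted p = 0.0121) and Myb by 5.06, and Bcl11a was at least 5.59-fold lower, its Grem1+ values all being dim. Spi1 and Spib, a pair of related ETS factors of blood cells, fell by 1.92 and 1.72. Foxo1, a driver of Rag transcription that other cell types use as well, rose by 2.57 (SE 0.36, limma adjusted p = 0.0211), with 7.94 to 8.74 in Grem1- and 10.60 to 11.13 in Grem1+. Ebf1, an early B lineage factor that marrow stroma also expresses, stood at 6.66, 7.94 and 8.77 in Grem1- and at 4.17, 6.73 and 6.03 in Grem1+, a difference of -2.15 (SE 0.42, limma adjusted p = 0.0395). Each mouse had less Ebf1 in Grem1+, and no Grem1+ array of it was dim.

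Of 15 tested genes of signalling by the pre-B cell receptor and the interleukin 7 receptor, 5 fell and 0 rose, with a median difference of -1.54. They included Vav1, which fell by 4.46, the kinase gene Syk by 4.15 and Prkcb by 2.51 on the log2 scale, and Pik3cd was at least 4.32-fold lower. The fifth was Tec, a kinase gene, which fell by 1.96. These genes also act in other blood cells. Il7r, the receptor of the cytokine that precursors depend on, stood at 5.60, 8.01 and 5.51 in Grem1- and was dim in Grem1+, and its difference of -3.27 did not pass (limma adjusted p = 0.0542). Mouse 2 was the highest Grem1- array for Il7r, as for Rag1 and Cd79a.

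DNA end joining is a repair route of all cells, and in lymphoid precursors it also seals the breaks made by the recombinase. Of its 12 tested genes, 1 fell and 0 rose, with a median difference of -0.15. The gene was H2afx, a histone variant at DNA breaks, which fell by 2.95 (SE 0.42, limma adjusted p = 0.0214). Of 10 tested genes of progenitor and precursor stages, 5 fell and 1 rose. Cd93 fell by 5.94, Bst1 by 4.62, Spn, the gene of CD43, by 4.41 and Cecr2 by 4.04 on the log2 scale. Kit, a receptor of early progenitors, was dim on all Grem1+ arrays and at least 1.87-fold lower. Cd9, a tetraspanin of many cell types, rose by 1.60 (SE 0.31, limma adjusted p = 0.0368), with 8.14 to 8.77 in Grem1- and 9.74 to 10.35 in Grem1+. Cd93, Bst1 and Spn are also carried by other blood cells.

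**Figure D4:**
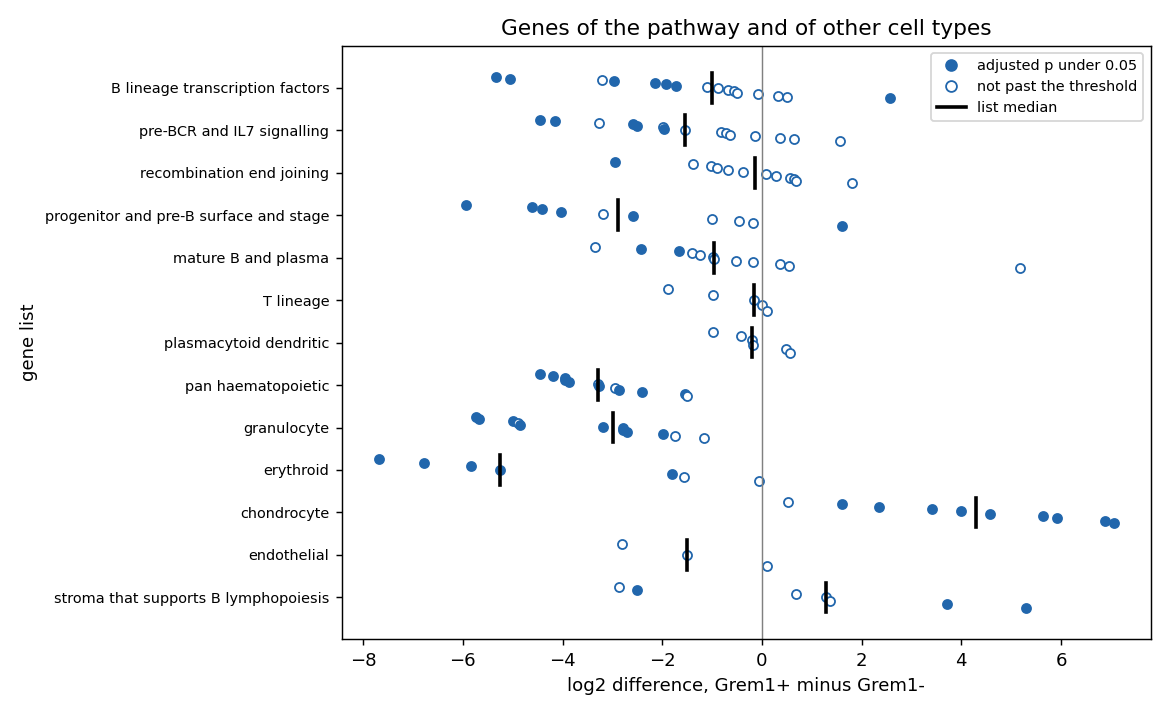
Log2 difference, Grem1+ minus Grem1- (horizontal axis), of each tested gene of 13 lists (rows); filled points have an adjusted p under 0.05 in limma and black bars are list medians. Medians are -3.28 for pan-haematopoietic, -5.26 for erythroid and 4.29 for chondrocyte genes, and those of T lineage and plasmacytoid dendritic genes lie near 0.

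Of 22 genes of mature B and plasma cells, 12 could be tested, of which 2 fell, Cd37 (at least 3.92-fold lower, limma adjusted p = 0.0401) and Cd72 (-1.66, limma adjusted p = 0.0400), and 0 rose. The median difference was -0.97. The largest difference of the list was upward, 5.18 for Sdc1, and did not pass (limma adjusted p = 0.0661). Sdc1 stood at 8.73, 5.82 and 2.33 in Grem1- and at 10.99, 10.42 and 11.02 in Grem1+. The log2 of the summed linear values of the 12 ran from 10.58 to 11.14 in Grem1- and from 10.96 to 11.75 in Grem1+. On each Grem1+ array most of this sum was Sdc1, so these ranges say little of the other genes. Cd22, an inhibitory receptor of B cells, was dim on all arrays, at 2.55 to 2.78. Ms4a1, the gene of CD20, was above the dim limit in mouse 2 alone, at 5.91 in Grem1- and 5.30 in Grem1+. Igj, the joining chain of secreted IgM, stood at 9.75, 9.27 and 10.63 in Grem1- and at 5.28, 5.03 and 9.30 in Grem1+. Mouse 3 was highest for Igj in both fractions. On the 6 Ighm probe sets where it led in Grem1-, it was the lowest or the middle array in Grem1+. Those Ighm values in Grem1+ were near or below the dim limit, so little is read from their order. The difference of -3.35 for Igj did not pass (limma adjusted p = 0.0509).

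Rag1, Rag2 and Dntt also act in T cell precursors, and plasmacytoid dendritic cells can carry Dntt and Rag transcripts. Of 11 T lineage genes with a probe set, 5 could be tested and 0 changed, with a median difference of -0.15. In limma, 0 of the 5 had an unadjusted p under 0.05 in either direction. Of all 18157 tested probe sets, 3038 had one and were lower, and 3322 had one and were higher. With 5 genes, a count of 0 says little. Of the other 6, Cd3g, Cd5 and Gata3 were dim on all 6 arrays, and the rest were above the dim limit on 1 array each. Cd3d, a subunit of the T cell receptor complex, reached 5.14 in the Grem1- fraction of mouse 2, and its partner Cd3e 4.11 in that of mouse 1. Ptcra, the pre-T cell receptor alpha chain, reached 4.98 in the Grem1+ fraction of mouse 3. The summed level of the tested T lineage genes ran from 9.41 to 9.79 in Grem1- and from 6.91 to 8.95 in Grem1+ (log2 of the summed linear values). Cd247, a receptor chain that natural killer cells share, stood at 5.58 in the Grem1+ fraction of mouse 1. On the other arrays Cd247 made up most of this sum, so the ranges say little of the other genes. Cd247 differed by -1.89 and the coreceptor gene Cd8a by 0.11, and neither passed (limma adjusted p = 0.182 and 0.835). Of 6 tested genes of plasmacytoid dendritic cells 0 changed (limma, 0 at an unadjusted p under 0.05), and the summed level ran from 9.22 to 9.83 and from 9.45 to 10.69. Most of that sum was Tcf4 on every array. Tcf4, an E protein gene that other cells also use, differed by 0.55 and Klk1 by 0.48 (limma adjusted p = 0.310 and 0.419). Siglech, their surface lectin, stood at 4.90, 4.28 and 3.93 in Grem1- and at 4.12, 4.10 and 4.31 in Grem1+, which overlap.

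Other blood lineages fell along with the members. Of 12 pan-haematopoietic genes 9 fell, and their summed level ran from 14.86 to 14.92 in Grem1- and from 12.19 to 13.26 in Grem1+. Cd52 fell by 4.20, Itgb2 by 3.95 and Was by 3.94 on the log2 scale. Of 12 granulocyte genes 9 fell, with summed levels of 14.74 to 14.82 and of 11.73 to 13.56, and Mmp8, a granule collagenase, fell by 5.73, Ctsg by 5.68, Lcn2 by 4.99 and Mmp9 by 4.86. Of 7 tested erythroid genes 5 fell, of which Hemgn was at least 76.3-fold lower, Car2 fell by 6.78, Slc4a1, the band 3 anion exchanger, by 5.83 and Ermap by 5.26. The part of this blood cell signal in the results on the members was not tested.

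Among the Grem1+ arrays, mouse 3 was the highest for 11 of the 12 granulocyte genes and for 1 of the 17 tested member probe sets, whereas mouse 1 was the highest for 14 of the 17. Ctsg, cathepsin G, stood at 2.72, 2.64 and 7.11 in the Grem1+ fractions of mice 1, 2 and 3. The mean over the 17 tested member probe sets was 3.60, 3.39 and 3.36 on the same arrays, against 6.09, 6.43 and 7.43 in Grem1-. As 12 of the 17 were dim there, their order in Grem1+ rests mostly on dim values.

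Cartilage genes went the other way. Of 10 chondrocyte genes 9 rose and 0 fell, Epyc by 7.06, Cytl1 by 6.87, Ucma by 5.93 and Matn1 by 5.64 on the log2 scale. Of 7 tested genes of stroma that supports B cell development, 2 rose, Foxc1 at least 14.3-fold and Igf1 by 3.72, and 1 fell, Lgals1 by 2.51 on the log2 scale. Cxcl12, the chemokine that holds B cell precursors near stroma, differed by 1.36 (limma adjusted p = 0.415), with Grem1+ at 8.44, 9.70 and 5.18. Il7, the cytokine of B cell precursors, was above the dim limit on 1 array, at 5.60 in the Grem1+ fraction of mouse 1. Of 3 tested endothelial genes 0 changed in limma (2 had an unadjusted p under 0.05), and Cdh5, Kdr, Tie1 and Emcn were dim on all arrays. Pecam1, the gene of CD31, stood at 5.25, 4.23 and 4.91 in the Grem1- fraction, which was gated against CD31, and was dim in Grem1+, a difference of -1.50 (limma adjusted p = 0.0638). Tek, the angiopoietin receptor, stood at 4.87, 7.14 and 4.07 in Grem1- and was dim in Grem1+, a difference of -2.81 (limma adjusted p = 0.0642). Vwf, the von Willebrand factor, differed by 0.11 (limma adjusted p = 0.863).

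The genes most like the mean of the tested members over the 6 arrays were Acvrl1, H2-T24, S1pr4, Abca13 and Rbl1. Their correlation with the mean of the 17 tested member probe sets was 0.998, 0.996, 0.995, 0.993 and 0.992 (Pearson, 6 arrays), values that the gap between the groups raises for any gene that separates them. Acvrl1 stood at 7.33, 7.90 and 8.82 in Grem1- and at 4.31, 3.99 and 4.32 in Grem1+. Its Grem1- arrays had the order of the member mean, with mouse 3 highest, and its Grem1+ arrays did not. Of the 17 probe sets in that mean, 8 were of Ighm, with mouse 3 highest in Grem1- on 6 of these. Vpreb1, Rag1 and Cd79b ordered the Grem1- arrays otherwise, so the likeness is to the mean and not to each member.

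Without mouse 3, whose Xist level goes against its label, all 17 tested members kept a negative difference. That sign was fixed, since every Grem1- array stood above every Grem1+ array for each, so only the sizes could change. The difference was -6.62 for Vpreb1, -0.86 and -0.32 for 1420176_x_at and 1420177_at of Igll1, -3.24 for Rag1, -1.71 for Cd79a and -2.60 for Cd79b. For Dntt it was -5.05 on 1420166_at, -4.75 on 1449757_x_at and -1.56 on 1450545_a_at. Of the Ighm probe sets not yet given without mouse 3, 1427756_x_at stood at -2.35, 1427870_x_at at -2.73, 1425385_a_at at -1.55, 1427351_s_at at -3.13 and 1427329_a_at at -1.49.

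With any single mouse left out, the difference ran from -6.62 to -6.25 for Vpreb1, from -5.30 to -5.00 for 1420166_at of Dntt and from -2.60 to -2.23 for Cd79b. Without the block, leaving out mouse 1, 2 or 3 left 7, 5 and 9 of the 17 called. With the block retained, 2 pairs remained and limma called 0 probe sets in the whole table, of which 2432, 2389 and 2341 were lower at an unadjusted p under 0.05. The 0 of 17 members called there, of which 13, 14 and 13 had an unadjusted p under 0.05, therefore says nothing of their stability.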

How the data were processed

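Each array held RNA of a sorted marrow fraction, extracted with a column kit and amplified before biotin labelling, per the labels' protocols. The values deposited by the authors are on a log2 scale, as their range of 0.798 to 14.05 shows. GCRMA, which corrects background and normalizes across arrays, is named in the submitters' processing notes, with parameters not given in the sources used here. Scanner files were not used here, and the number of arrays limits the precision.

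Of 45101 probe sets, 34945 had 1 gene symbol, 932 had several, 9160 were unnamed here and 64 were controls. Those with 1 symbol and a value above log2 4 on at least 3 of 6 arrays were tested (18157 probe sets, 10151 genes). Differences (Grem1+ minus Grem1-) were tested with limma 3.58.1 in R 4.3.3 (lmFit, eBayes, two-sided) with the mouse as a block, with Benjamini-Hochberg adjustment over all 18157 and a threshold of 0.05. Degrees of freedom were 2 (residual) and 2.28 (prior). The pairing comes from the series' design text and the number in the titles, and deviations of same-mouse arrays correlated at 0.014, 0.052 and 0.031. With 3 pairs an exact sign-flip permutation test cannot go below 0.25. No 2 arrays shared more than 0.00222% of values. The script was tested on simulated data.

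Members and gene lists were chosen with earlier results of these data known. Named are every member, Ptprc and the 5 genes most like the mean of the tested members. Also named from each list are up to 4 genes past the threshold with the largest difference (or 2 with the highest mean where none passed). Other names were chosen after their values were seen. Alternatives covered the filter, probe choice, dim values, scaling, variance model, block and each mouse.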

Additional observations from a re-analysis of the deposited data

How the results depend on the processing

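All 17 tested member probe sets kept a negative difference under every alternative that tested them. For each, every Grem1- array stood above every Grem1+ array, so leaving out a mouse could not change the sign. For the 12 dim on all Grem1+ arrays, the filter itself fixed this, so nothing is read from the shared sign. Quantile normalization and median centring changed no call among the 17. Of 17 tested members, 10 were called lower. This became 6 without the filter on dim probe sets, and 5 of the 5 that passed the stricter filter at log2 6. It became 4 of the 7 without probe sets with the suffix _s_at, _x_at or _a_at, and 4 of 7 with 1 probe set per gene. After averaging the probe sets of each gene it was 5 of 7, the 4 genes called before and Rag1 (limma adjusted p = 0.0360). In these settings fewer were tested by construction. Without the replicate block 13 members were called, with 2329 probe sets higher and 1876 lower in the whole table. Over the settings that left out 1 mouse, with or without the block, the members called ran from 0 to 9, all probe sets called higher from 0 to 1176 and lower from 0 to 796. With the block kept, each mouse left out gave 0 in all of these, in the whole table too, so that 0 says nothing of the members. Without it, leaving out mouse 1, 2 or 3 gave 1114, 1176 and 1122 probe sets higher, 761, 751 and 796 lower and 7, 5 and 9 members called. In the whole table, 1826 probe sets were higher and 1409 lower. Without the filter these were 1095 and 666, and with 1 probe set per gene 1191 and 864. A filter at log2 5, chosen after seeing the data, called 10 of 11 members, 9 of them shared with the 10. As no member exceeded 4.55 in Grem1+, the filters at log2 5 and 6 admitted members only through high Grem1- values. Their counts of members were thus largely fixed by the filter. In the whole table, 1485 of 12977 probe sets were lower at log2 5 and 1311 of 9666 at log2 6. In some of these settings fewer probe sets or mice entered, and the cause of the changes was not tested. Values near log2 4 limit what the arrays show of Igll1, Vpreb3, Rag2 and Pax5.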
